A study of Homo sapiens with 120 samples.

Results

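The comparison described here is that of a long double-stranded RNA (dsRNA) labelled dsGFPd with mock transfection, in total RNA of the first of the study's experiments. It was chosen by the libraries' labels alone, and it holds 16 of the 120 small RNA libraries of the study: 8 transfected with dsGFPd and 8 mock. All 16 come from HEK293T, a human embryonic kidney line transformed with adenoviral and SV40 genes, and all carry a knockout of PKR, the kinase that dsRNA activates. Each transfection was given to 4 cell lines with 2 libraries each: the PKR-knockout parental line, the same line with PACT knocked out, with TRBP knocked out, and with both PACT and TRBP knocked out. The labels name 1 line per knockout, do not say whether its 2 libraries come from separate cultures, and give neither the sequence nor the length of dsGFPd. The p-values below therefore measure the spread between these libraries, which may be technical. Long dsRNA was delivered with a lipid reagent, and the labels do not say whether mock cells received that reagent, so the dsRNA and its delivery cannot be told apart. Total RNA was taken with TRI reagent, and libraries were made with a Lexogen small RNA kit. Only mature microRNAs (miRNAs) were counted, so the knocked-out genes themselves are not measured.

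MicroRNAs are cut from hairpins in longer transcripts, first by Drosha in the nucleus and then by Dicer in the cytoplasm. Dicer works with the dsRNA-binding proteins PACT and TRBP. Each hairpin can give a mature strand from its 5p arm and one from its 3p arm, and an Ago protein keeps one of them as a guide whose seed, bases 2 to 8, pairs with target mRNAs. Long dsRNA is also a sign of virus infection: it is bound by the sensors RIG-I and MDA5, which switch on interferon and, through it, antiviral genes, and some miRNA hairpins lie within such genes.

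Mature sequences of the miRNAs the results turn on are given from RefSeq (GRCh38.p14), 5′ to 3′. First come strands of hairpins that lie within interferon-induced genes, with the seed in capitals, because they had the largest rises or were seen only with dsRNA.
miR-10399-3p: cUCUCGGAcaagcuguagguc
miR-10399-5p: aAUUACAGauugucucagaga
miR-3614-5p: cCACUUGGaucugaaggcugccc
miR-6891-5p: uAAGGAGGgggaugagggg
The MIR10399 hairpin lies at chr7:139044100-139044157 on the minus strand, within the span of ZC3HAV1. MIR3614 lies at chr17:56891270-56891355 on the minus strand, within TRIM25.

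The next set shares the seed AAAGUGC, except miR-18a-5p, a close relative from the same cluster as miR-17-5p and miR-20a-5p. Capitals mark the seed and, where present, the stretch GUGCAGGUAG at the 3′ end. This stretch is the 3′ end shared by the members that rose, picked out after the values had been seen.
miR-20a-5p: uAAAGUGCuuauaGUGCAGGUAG
miR-93-5p: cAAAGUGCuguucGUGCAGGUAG
miR-17-5p: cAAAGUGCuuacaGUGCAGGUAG
miR-106a-5p: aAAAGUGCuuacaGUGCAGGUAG
miR-106b-5p: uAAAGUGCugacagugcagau
miR-18a-5p: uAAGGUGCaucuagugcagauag
The last set holds both strands of MIR27B and miR-181a strands, whose changes differed between arms, and miR-222-3p, an abundant miRNA that fell, with the seed in capitals.
miR-27b-3p: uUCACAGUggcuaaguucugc
miR-27b-5p: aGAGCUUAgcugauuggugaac
miR-181a-5p: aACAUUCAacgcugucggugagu
miR-181a-3p: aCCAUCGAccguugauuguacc
miR-222-3p: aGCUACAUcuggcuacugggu

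The mock libraries held 664201 to 1104630 miRNA reads (median 820596) and the dsGFPd libraries 406531 to 895350 (median 516505). The mean log2 difference was -0.64, with a two-sided exact permutation p of 0.00154 within cell lines, the smallest that the arrangements of libraries can give. The deposited values are normalised counts, in which 1 read was worth 0.748 to 1.09 in mock and 0.929 to 2.01 in dsGFPd libraries, so low levels are less precise with dsGFPd. Their sum per library was slightly higher with dsGFPd, by 0.08 on the log2 scale (exact permutation p = 0.034). The miRNAs that HEK293T is known to make in quantity, miR-10a-5p, miR-10b-5p, miR-196a-5p and miR-196b-5p, together had 151500 to 236800 normalised counts in mock and 186700 to 278100 with dsGFPd. Of these, miR-10b-5p rose by 0.28 (limma adjusted p = 0.000669), though not after quantile normalization, and the others were not called. Defining miRNAs of blood cells summed to at most 9.14 in mock and 10.2 in dsGFPd libraries, the liver marker miR-122-5p was at most 3.27 and 7.38, and those of neurons summed to at most 0.748 and 1.84. Of the listed markers, 2 of 6 for blood, 1 of 4 for muscle, 1 of 5 for epithelium and 1 of 2 for neurons had no read in any of the 16 libraries. Of the other markers, miR-126-3p of endothelium (70.3 to 163 over the 16 libraries), miR-1-3p of muscle and miR-200c-3p of epithelium were measurable in both groups and not called, and miR-141-3p of epithelium rose by 1.04 at a low level (limma adjusted p = 0.0452), though not after quantile normalization or with columns scaled to the same sum. Too scarce for the test were miR-200b-3p of epithelium (44 reads in mock, 15 with dsGFPd), miR-200a-3p of epithelium (11 and 7) and miR-133a-3p of muscle (53 and 15). By normalised counts each was lower in 3 lines and higher in 1. The part of cell composition in the results was not tested, and in bulk RNA fewer cells of a type and less RNA per cell cannot be told apart.

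With dsGFPd, 50 of the 395 miRNAs tested rose and 38 fell, which is 12.7% and 9.62% of those tested, or 22.3% in all. Only miRNAs with 10 reads or more in 6 or more of the 16 libraries entered the test, which was limma on log2(normalised count + 1) with cell line as a covariate, and calls were made at a Benjamini-Hochberg adjusted p under 0.05. Changes and standard errors below are on this log2 scale. The rises were larger than the falls: 16 of the called miRNAs rose and 4 fell by at least 1, and the median change was 0.74 among those that rose and -0.50 among those that fell, beside -0.01 over all tested. Of the 50 that rose, 46 were higher in each of the 4 lines, and 36 of the 38 that fell were lower in each. Of the 307 not called, 65 had the same sign in each line. In 16 of those that rose and 2 of those that fell, all 8 dsGFPd libraries lay outside the range of the 8 mock libraries, and in 0 of those not called. The calls rest on the same values and favour such agreement, so these counts are not separate evidence. The split of directions depended on scaling, since 40 rose and 48 fell after quantile normalization, and 43 rose and 58 fell with columns scaled to the same sum. Without the libraries of replicate number 1 the count was 79 (47 rose, 32 fell), without those of number 2 it was 26 (22 rose, 4 fell), and without the PACT knockout line it was 58. Among the miRNAs not called without number 2 were miR-340-3p, miR-454-5p, miR-941, miR-1910-5p, miR-1276, miR-152-5p, miR-221-5p and both miR-181a strands.

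**Figure D1:**
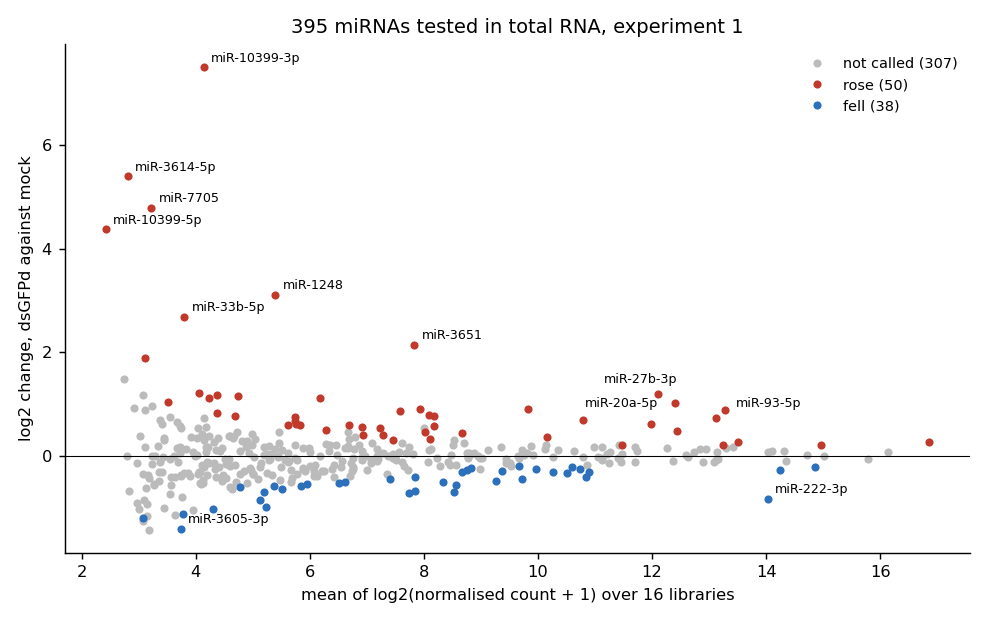
Log2 change with dsGFPd against mock (vertical) by mean log2 level over 16 libraries (horizontal) for the 395 miRNAs tested, each point a miRNA, coloured by its limma call. The largest rises, up to 7.50 for miR-10399-3p, lie at low levels, while miR-27b-3p, miR-20a-5p and miR-93-5p rose by 0.89 to 1.20 at high levels.

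The largest rises were in miRNAs that were nearly absent without dsRNA. miR-10399-3p, whose hairpin lies within ZC3HAV1, the gene of the antiviral zinc-finger protein ZAP, had 0 to 3.18 normalised counts in mock libraries (median 0) and 167 to 425 with dsGFPd (median 232). Every dsGFPd library was thus far above every mock library, and the reads numbered 4 in all mock libraries and 1366 in all dsGFPd libraries. The change was 7.50 ± 0.30 (SE, n = 8 per group, limma adjusted p = 1.65e-14), a fitted value that depends on the pseudocount, as do its values by line, and ranged from 4.56 to 10.13 over the alternatives. The ratio of scaled reads was 551.7, with a 95% counting interval of 215.0 to 2028. Its 5p partner, miR-10399-5p, rose from 0 to 1.07 in mock to 3.45 to 64.0 with dsGFPd, with a change of 4.38 (adjusted p = 1.07e-06). Its mock total was only 2 reads, and the ratio of reads adjusted for library scaling was 130.1, with a 95% counting interval of 35.4 to 1083.

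miR-3614-5p, from the span of TRIM25, a ubiquitin ligase that acts in RIG-I signalling, had 1 read in all mock libraries, at most 0.838 normalised counts. With dsGFPd it had 17.3 to 96.6 (median 51.6), and no dsGFPd library came near the mock level. Its change was 5.40 (adjusted p = 1.91e-09), a fitted value that depends on the pseudocount of 1. The ratio of scaled reads was 491.1, with a 95% counting interval of 87.5 to 19460. The other arm, miR-3614-3p, had no read in either group. miR-7705, which is on no list used here, was likewise near 0 in mock: 0 to 6.06 in mock (median 0.795) and 27.7 to 69.4 with dsGFPd (median 48.5). It rose by 4.79 ± 0.41 (SE, n = 8 per group, limma adjusted p = 6.27e-09), without overlap of the groups, and by 2.39 to 6.49 over the alternatives. With 11 reads in all mock libraries and 268 in all dsGFPd libraries, miR-7705 passed the read filter through dsGFPd libraries alone. Its entry into the test thus depended on the group in which it was high.

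Further miRNAs within interferon-induced genes had too few reads for the test across miRNAs. miR-6891-5p, from HLA-B, a class I antigen-presenting molecule, had no read in any mock library and 3.64 to 26.4 normalised counts with dsGFPd (median 7.59). It was present in all 8 dsGFPd libraries, at least 30.2-fold above a floor of 3 reads over the mock group (exact permutation p = 0.00154, n = 8 per group). miR-10393-5p, from B2M, the light chain of class I molecules, had no mock read and 28 reads over 6 of the 8 dsGFPd libraries, at least 15.1-fold above that floor (exact permutation p = 0.0139, n = 8 per group). Both were named for having at least 10 reads over the 16 libraries, and all of those reads came from dsGFPd libraries. Their permutation p-values are thus only a description. miR-7703, from PSME2, a proteasome activator, had 13 reads in mock and 14 with dsGFPd, a ratio of 1.74 with a 95% counting interval of 0.758 to 4.02 (exact permutation p = 0.363, n = 8 per group). The list of such miRNAs holds 10 names, of which 3 passed the read filter; all 3 did so through dsGFPd libraries and rose, so that count adds nothing to their values.

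**Figure D2:**
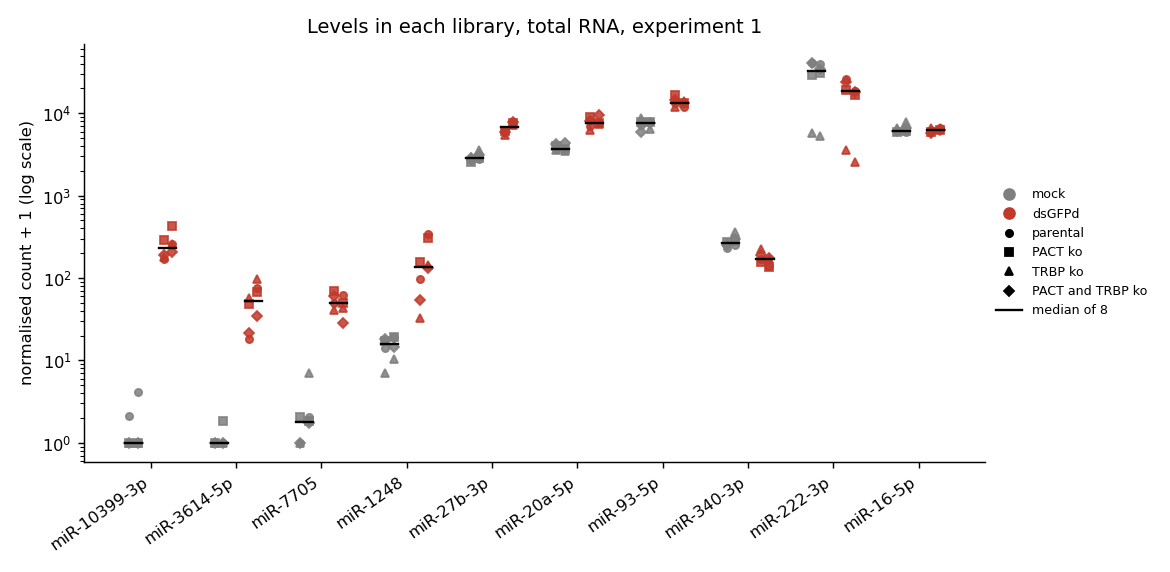
Normalised count + 1 (vertical, log scale) of 10 miRNAs in each of the 8 mock (grey) and 8 dsGFPd (red) libraries, with symbols for the cell line and a bar at the median of 8. miR-10399-3p, miR-3614-5p, miR-7705 and miR-1248 have no overlap between groups, miR-16-5p is level, and the low values of miR-222-3p are those of the TRBP knockout line.

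Some entries counted as miRNAs are known to overlap other small RNAs. miR-1248 lies within EIF4A2, a translation factor gene, and overlaps a small nucleolar RNA there. It had 5.99 to 18.4 normalised counts in mock (median 14.8) and 31.5 to 340.2 with dsGFPd (median 137), with no overlap and a change of 3.11 (adjusted p = 7.45e-08). miR-3651, within IARS1, a tRNA synthetase gene, also overlaps a small nucleolar RNA, and it went from 52.8 to 224 (median 106) to 204 to 966 (median 493). Its groups overlapped slightly, and in every line the dsGFPd library of replicate 2 was above that of replicate 1, as for miR-1248. miR-3651 rose by 2.15 ± 0.23 (SE, n = 8 per group, limma adjusted p = 3.63e-07). Of the 6 tested entries of this kind, these 2 rose and none fell, beside 12.7% and 9.62% of all tested miRNAs. The most abundant of the 6, miR-1291, had a change of 0.09 (adjusted p = 0.457), and miR-664a-5p, miR-664b-5p and miR-1260b were not called. Neither miR-1248 nor miR-3651 passed the read filter in the Ago pulldown, where RNA bound to Ago proteins is recovered.

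miR-27b-3p, abundant in both groups, rose in each line. It had 2570 to 3551 normalised counts in mock (median 2837) and 5496 to 7828 with dsGFPd (median 6737), without overlap. The change was 1.20 ± 0.08 (SE, n = 8 per group, limma adjusted p = 3.66e-10). The other arm of the same hairpin, miR-27b-5p, had 74.1 to 171 in mock and 72.5 to 146 with dsGFPd, a change of -0.04 (adjusted p = 0.861). miR-23b-3p and miR-24-3p, which lie beside it within AOPEP, had changes of -0.18 (not called) and -0.26 (fell, adjusted p = 0.0136), the latter from more than one locus. miR-27a-3p, with the same seed UCACAGU from another gene, rose by 0.59 (adjusted p = 0.00468). Both tested members of this seed family thus rose under each scaling, beside 12.7% of all tested miRNAs under the deposited one. miR-27a-3p had a median of 84.9 in mock and differs from miR-27b-3p in 1 base. Whether reads of miR-27b-3p were counted as miR-27a-3p was not tested.

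Most tested members of the family with the seed AAAGUGC rose, 4 of 5, beside 12.7% of all tested miRNAs. After quantile normalization 4 rose and 1 fell. miR-20a-5p had 3469 to 4401 normalised counts in mock (median 3657) and 6274 to 9455 with dsGFPd (median 7555), and its groups did not overlap. It rose by 1.02 ± 0.06 (SE, n = 8 per group, limma adjusted p = 1.86e-11), and by 1.01, 1.11, 0.94 and 1.00 in the parental, PACT, TRBP and double-knockout lines. miR-93-5p went from 5945 to 8635 (median 7701) to 11944 to 16860 (median 13301), also without overlap, a rise of 0.89 (adjusted p = 5.96e-09). miR-17-5p went from 2947 to 3587 (median 3207) to 4411 to 5580 (median 5063), a rise of 0.62. The scarce miR-106a-5p rose by 0.77 (adjusted p = 0.0107), from a median of 20.1 to 32.7, with overlap. It differs from the far more abundant miR-17-5p in the first base only. Whether reads of miR-17-5p were counted as miR-106a-5p was not tested. The fifth tested member, miR-106b-5p, had a median of 359.7 in mock and 326.5 with dsGFPd and was not called (change -0.12, adjusted p = 0.400).

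The members that rose are those that hold the 3′ stretch GUGCAGGUAG printed above. It occurs in 5 of the 2370 mature sequences of the RefSeq table and in 4 of the 357 tested miRNAs that have a sequence there, and all 4 rose. The fifth carrier, miR-20b-5p, had too few reads for the test, with 14 in mock and 11 with dsGFPd. miR-106b-5p, which has the seed without the stretch, was not called, nor was miR-18a-5p, with a change of -0.13. The stretch was defined, after the values were seen, as the longest 3′ end shared by the 4 members that rose. That its tested carriers rose was thus largely fixed by that choice, and this match is only a description.

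Neighbours on 1 transcript differed in which strands were called. Within MIR17HG, the host of the miR-17-92 cluster on chromosome 13, miR-17-5p, miR-18a-3p and miR-20a-5p rose by 0.62, 0.88 and 1.02, and miR-92a-1-5p rose by 0.22. In the same transcript, miR-17-3p (0.13), miR-18a-5p (-0.13), miR-19a-3p (0.12), miR-19b-3p (0.13), miR-20a-3p (-0.39) and miR-92a-3p (-0.06) were not called. The 5p to 3p ratio, described below, was called in MIR18A and MIR20A. It was not called in MIR17 (0.49, limma adjusted p = 0.0729) or MIR92A1 (0.27, adjusted p = 0.0692), so a difference between those arms is not shown. The second cluster, within MCM7 on chromosome 7, gave rises of miR-106b-3p (0.70), miR-93-5p (0.89) and miR-25-5p (0.59), whereas miR-106b-5p (-0.12), miR-93-3p (-0.21) and miR-25-3p (0.09) were not called. Of the 10 tested guide strands listed for these clusters and their paralogs, 4 rose and none fell, with a median change of 0.13 beside -0.01 over all miRNAs. Over all tested miRNAs 12.7% rose and 9.62% fell. After quantile normalization 5 of the 10 rose and 1 fell, beside 40 and 48 of all 395. With columns scaled to the same sum 4 rose and 2 fell, beside 43 and 58 of all 395.

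The 2 dsRNAs of the study were compared directly, with 8 dsGFPd and 8 dsGFPc libraries of total RNA and no mock library in the fit. Of 365 miRNAs tested, 3 were higher with dsGFPd (0.822%) and 1 was lower (0.274%), 1.1% in all, and 46 had an unadjusted p under 0.05. miR-20a-5p was higher by 0.90 (95% interval 0.77 to 1.02, adjusted p = 3.68e-10), miR-93-5p by 0.84 (0.72 to 0.96, adjusted p = 6.73e-10) and miR-17-5p by 0.60 (0.50 to 0.69, adjusted p = 2.44e-09), all by limma. With dsGFPc, miR-20a-5p had 3518 to 5452 normalised counts (median 4171) and miR-93-5p had 6661 to 8183 (median 7678). All 8 dsGFPd libraries lay above all 8 dsGFPc libraries for both. miR-106a-5p differed by 0.73, with a wide interval of 0.28 to 1.18 and no call (adjusted p = 0.101). miR-106b-5p had -0.20 (-0.38 to -0.01, adjusted p = 0.342) and miR-18a-5p 0.05 (-0.11 to 0.22, adjusted p = 0.871). The miRNA that was lower with dsGFPd was miR-221-5p, by 0.39 (log2 difference -0.39, adjusted p = 0.00763).

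The same difference was then taken in other libraries, a choice made after it had been seen. In total RNA of experiment 2, with the parental line and lines without Ago2 or without Ago1 and Ago2 (6 against 6 libraries), it was 1.18 for miR-20a-5p (95% interval 0.55 to 1.81), 0.89 for miR-93-5p (0.30 to 1.47) and 0.72 for miR-17-5p (0.21 to 1.24). None of these passed the adjusted threshold there, where limma called 0 of 526 miRNAs, edgeR 0, and 31 had an unadjusted p under 0.05. In the Ago pulldown of experiment 1 the differences were smaller: 0.28 (-0.06 to 0.62) for miR-20a-5p, 0.18 (-0.10 to 0.46) for miR-93-5p and 0.15 (-0.11 to 0.42) for miR-17-5p. Limma and edgeR each called 0 of 767 miRNAs there, and 20 had an unadjusted p under 0.05. For each of the 3 miRNAs the upper bound in the pulldown lies under the lower bound in total RNA of experiment 1. The difference between the fractions was not tested as such. The lower level of miR-221-5p was not seen in these libraries. Its difference was 0.02 (95% interval -0.48 to 0.53) in experiment 2 and 0.02 (-0.43 to 0.47) in the pulldown, without a call.

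**Figure D3:**
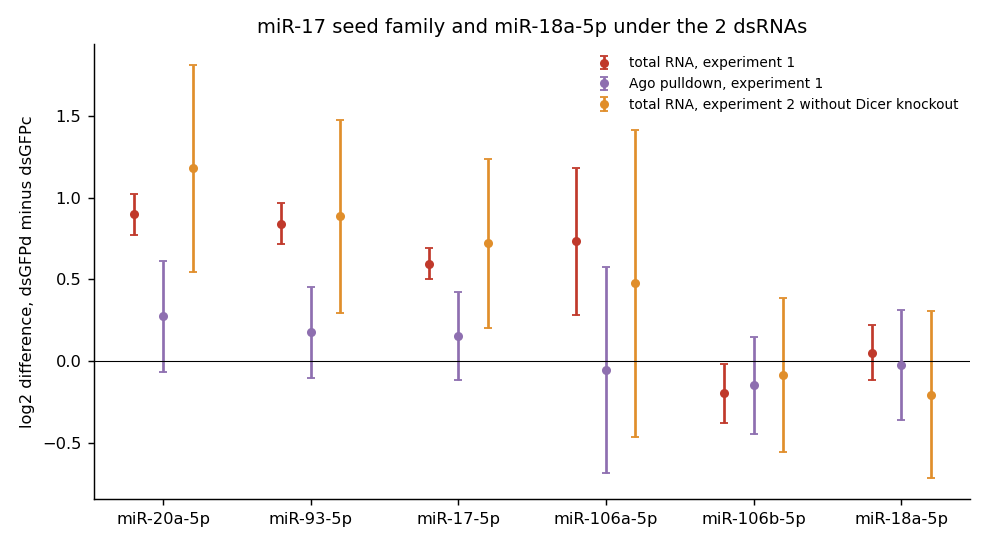
Log2 difference between dsGFPd and dsGFPc (vertical; points are estimates, bars 95% intervals) for the 5 tested miRNAs with the seed AAAGUGC and for miR-18a-5p, in total RNA and Ago pulldown of experiment 1 and in total RNA of experiment 2. In total RNA miR-20a-5p, miR-93-5p and miR-17-5p lie at 0.60 to 1.18, in the pulldown at 0.15 to 0.28, and miR-106b-5p and miR-18a-5p lie between -0.20 and 0.05 throughout.

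For the other large changes the direct test made no call. Against the same mock libraries, which both comparisons share, miR-10399-3p changed by 7.50 with dsGFPd and 6.75 with dsGFPc, miR-3614-5p by 5.40 and 5.21, miR-7705 by 4.79 and 4.24, and miR-27b-3p by 1.20 and 0.90. The direct difference was 0.30 (95% interval 0.11 to 0.50, limma adjusted p = 0.138) for miR-27b-3p and 0.75 (0.30 to 1.19, adjusted p = 0.101) for miR-10399-3p, so a lack of calls does not show the dsRNAs to be alike. miR-222-3p changed by -0.82 with dsGFPd and -0.45 with dsGFPc.

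Arms of a hairpin were compared as the ratio of 5p to 3p, a test added after the values were seen. Over the 83 hairpins whose 2 tested arms are both linked to the hairpin in the RefSeq table, limma called the ratio in 26, or 31.3%: 13 moved toward the 5p arm and 13 toward the 3p arm. In most hairpins with a called miRNA only 1 arm was called (29 hairpins), while both rose in 2, both fell in 2 and the arms went opposite ways in 1. Neither arm was called in 49, and 22.3% of all tested miRNAs were called. At such a share 1 called arm is the common case even for unlinked strands, so these counts do not show that arms part. Pairs without that link are not in these counts, among them those of miR-93 and miR-221, and miR-766, of which the 5p strand rose by 0.75 and the 3p strand fell by 0.85. The hairpin with opposite arms was MIR181A1, although miR-181a-5p is also made from MIR181A2: miR-181a-5p went from a median of 4573 to 6770 and rose by 0.49 (adjusted p = 0.00011), and miR-181a-3p went from 717 to 505 and fell by 0.47 (adjusted p = 0.00102). Its ratio moved by 0.97 toward the 5p arm (adjusted p = 0.000736).

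The ratio moved toward the 3p arm by 1.25 in MIR27B (log2 ratio change -1.25, adjusted p = 0.000446), by 1.01 in MIR18A (-1.01, adjusted p = 0.000319) and by 0.81 in MIR106B (-0.81, adjusted p = 0.00218), by limma. It moved toward the 5p arm by 1.40 in MIR20A (adjusted p = 0.0164), although miR-20a-3p had a median of only 15.1 normalised counts in mock. miR-33b-5p, from an intron of SREBF1, the lipid synthesis regulator, rose by 2.69 without overlap, while miR-33b-3p did not pass the test (-0.40, adjusted p = 0.584). miR-296-3p went from 554 to 784 (median 687) to 844 to 1593 (median 1267) and rose by 0.91 without overlap, while the scarce miR-296-5p had 0.01, and this ratio was not called (adjusted p = 0.0729). miR-424-3p rose by 0.79 with miR-424-5p at 0.20 (adjusted p = 0.417), and miR-454-5p fell by 0.67 with miR-454-3p at 0.15 (adjusted p = 0.358). Without mock replicate 2 of the double-knockout line 16 ratios were called, and without mock replicate 2 of the PACT knockout line 17.

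**Figure D4:**
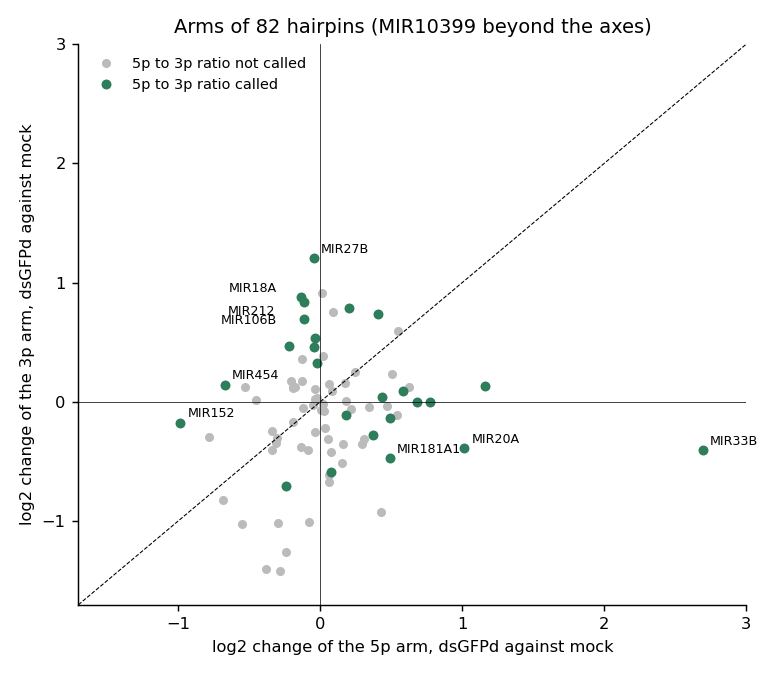
Log2 change with dsGFPd against mock of the 5p arm (horizontal) and 3p arm (vertical) of 82 hairpins with both arms tested and linked in the RefSeq table; MIR10399, where both arms rose, lies beyond the axes. Green points are hairpins whose 5p to 3p ratio was called, which by itself places them away from the dashed line of equal change. Many of them lie near 1 axis.

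Other seed families were described by their members. In the family with the seed ACAUUCA, miR-181a-5p, miR-181c-5p and miR-181d-5p rose by 0.49, 0.77 and 0.38, and miR-181b-5p had 0.16 (adjusted p = 0.129); 3 of the 4 rose under each scaling. In the family with AUUGCAC, miR-92b-3p rose by 0.74 and miR-32-5p by 1.16, and the far more abundant miR-92a-3p and miR-25-3p had -0.06 and 0.09. This family gained a call in quantile-normalised values (3 rose) and had 1 member that fell with columns scaled to the same sum. miR-34a-5p and miR-449a, which share the seed GGCAGUG and are known regulators of the cell cycle, rose by 0.92 and 0.62. miR-34a-5p spanned 26.2 to 482 (median 266) in mock and 57.0 to 821 (median 474) with dsGFPd, so the groups overlapped, with the lowest values of both groups in the TRBP knockout line, yet it was higher in each line. Of 5 tested miRNAs listed as targets of p53, miR-34a-5p and miR-34c-5p rose under the deposited scaling, 1 rose after quantile normalization, and none fell. Over all tested miRNAs 12.7% rose.

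Of 8 tested miRNAs listed for inflammation, 1 rose and none fell, a share near the 12.7% of all tested miRNAs that rose, with a median change of 0.16. The one was miR-212-3p, with 8.65 to 27.4 in mock, 14.5 to 51.7 with dsGFPd and a rise of 0.83 (adjusted p = 0.00988). Its call held in all 16 fits without a single library and in 11 of 17 other alternatives. It was lost with no low-count filter, without replicate number 1 or 2, without the parental or double-knockout line, and at a log2 change of at least 1. By edgeR 3 of the 8 rose. miR-146a-5p (0.18) and miR-146b-5p (0.14), feedback regulators of NF-kB signalling, were not called, and miR-21-5p had 0.18 (adjusted p = 0.0578). miR-155-5p, a miRNA of activated immune cells, was too scarce for the filter: 0 to 4.27 in mock (14 reads) and 0 to 31.1 with dsGFPd (75 reads), a ratio of 8.66 with a 95% counting interval of 4.85 to 16.6 (exact permutation p = 0.00926, n = 8 per group). All 6 dsGFPd libraries of the parental, PACT and double-knockout lines had 12.5 to 31.1, above every mock library, and all 4 libraries of the TRBP knockout line had 0 reads.

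Among the miRNAs that fell, miR-222-3p, known for repressing cell-cycle inhibitors, had 5271 to 40737 in mock (median 32430) and 2542 to 26152 with dsGFPd (median 18511). The ranges overlapped because the TRBP knockout line was low in both groups, while within each line both dsGFPd libraries were below both mock libraries. It fell by 0.82 (SE 0.08, n = 8 per group, limma adjusted p = 4.76e-08), and by 0.85, 0.74, 0.85 and 0.83 in the parental, PACT, TRBP and double-knockout lines. From the same MIR222HG transcript, miR-222-5p fell by 0.69 and miR-221-5p by 0.44, and miR-221-3p, with 60194 reads with dsGFPd, had 0.08 (adjusted p = 0.41). These 3 of 4 members fell under each scaling, beside 9.62% of all tested miRNAs under the deposited one. Of all 395 tested, 48 fell after quantile normalization and 58 with columns scaled to the same sum.

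miR-340-3p went from 229 to 363 (median 266) to 136 to 223 (median 169) and fell by 0.70 (adjusted p = 1.81e-05). Its groups did not overlap, and miR-340-5p also fell, by 0.24. miR-941 went from 107 to 143 to 65.8 to 99.4, without overlap, and fell by 0.50. miR-7706, miR-1276 and miR-1910-5p fell by 0.57, 0.52 and 0.50 with overlapping groups. Among scarcer miRNAs, miR-152-5p fell by 0.98 from a median of 51.5 to 26.3. miR-148a-3p and miR-148b-3p, which share the seed of its other arm, fell by 0.27 and 0.40, and that arm, miR-152-3p, was not called. miR-3605-3p, miR-193a-5p, miR-940 and miR-3065-3p had the largest negative changes among called miRNAs (-1.40, -1.19, -1.11 and -1.01) at medians of at most 27.5 normalised counts in mock. Their calls were lost when single libraries were left out, in 11, 8, 12 and 6 of 16 fits. With 109 reads in all mock libraries and 28 in all dsGFPd libraries, miR-193a-5p passed the read filter through mock libraries alone. Its entry into the test thus depended on the group in which it was high.

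Other listed groups were described by their calls, beside 12.7% that rose and 9.62% that fell over all tested miRNAs. Groups this small can hold no call at such shares, so their counts are only a description. All 9 tested let-7 strands were uncalled, with a median change of -0.07, although 3 fell after quantile normalization and 3 with columns scaled to the same sum. The 2 tested mirtrons, which are spliced rather than cut by Drosha, were uncalled. Of 4 strands made without Drosha, miR-320a-3p and miR-320b rose by 0.27 and 0.41, and none of the 4 rose after quantile normalization. miR-16-5p, a control of the study's pulldown protocol, had 5927 to 7851 in mock and 5810 to 6665 with dsGFPd, a change of -0.02 (adjusted p = 0.817).

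Whether the change with dsGFPd differs between the lines was tested as an interaction of transfection and cell line. Limma called 0 of 395 miRNAs in the F test over the 3 knockouts, edgeR called 0, and 11 had an unadjusted p under 0.05 by limma. Each knockout alone against the parental line gave 0 calls as well, with 15 unadjusted for PACT, 6 for TRBP and 14 for both. Values by line show the spread: miR-10399-3p rose by 6.15, 8.47, 7.75 and 7.64 in the parental, PACT, TRBP and double-knockout lines, miR-27b-3p by 1.35, 1.32, 0.96 and 1.19, and miR-3651 by 2.41, 2.95, 2.20 and 1.04. With 2 libraries per line and group, a missed threshold does not show that the lines respond alike.

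**Figure D5:**
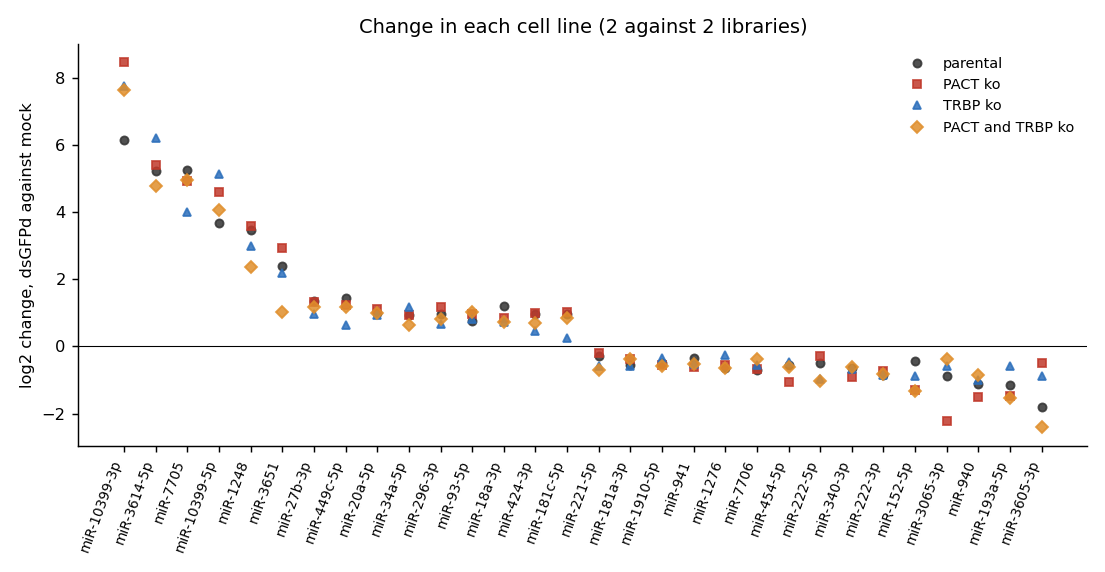
Log2 change with dsGFPd against mock (vertical) in each of the 4 cell lines, 2 against 2 libraries per point, for the 30 miRNAs named for their change. For 10 miRNAs per direction the same sign in each line was part of how they were chosen, so only the spread is shown, from 8.47 for miR-10399-3p in the PACT knockout to -2.41 for miR-3605-3p in the double knockout.

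In the Ago pulldown of experiment 1, from which 8 dsGFPd and 8 mock libraries were fitted in the same way, 59 of 817 miRNAs rose (7.22%) and 69 fell (8.45%), 15.7% in all. Of the 50 that rose in total RNA, 44 were tested there and 26 rose, which is 52% of the total RNA calls and 44.1% of the pulldown calls. Of the 38 that fell, 16 fell there, 42.1% and 23.2% of each list. No call was opposite. miR-10399-3p changed by 6.96, miR-3614-5p by 5.75, miR-27b-3p by 1.68, miR-296-3p by 1.53 and miR-222-3p by -1.02, all called by limma. miR-20a-5p and miR-93-5p rose less, by 0.71 and 0.42, and miR-17-5p had 0.22 (adjusted p = 0.245).

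In total RNA of experiment 2, with 6 dsGFPd and 6 mock libraries and no Dicer knockout, 16 of 551 miRNAs rose (2.9%) and 10 fell (1.81%), 4.72% in all, and 86 had an unadjusted p under 0.05. Of the 50 that rose in experiment 1, 13 rose there, 26% of that list and 81.2% of the list of experiment 2, and 43 of the 48 tested had a change above 0. Of the 38 that fell, 6 fell and 34 had a change below 0. The 13 include miR-10399-3p (5.97), miR-3614-5p (5.51), miR-7705 (3.15), miR-20a-5p (1.57), miR-34a-5p (1.29), miR-93-5p (1.28), miR-27b-3p (1.09) and miR-17-5p (1.00). miR-222-3p fell by 0.95. miR-18a-3p, with 0.88 in experiment 1, had 0.05 (adjusted p = 0.94), and miR-3651 had 1.48 without a call (adjusted p = 0.317). By edgeR 14 were called in experiment 2 in place of 26.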

How the data were processed

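The authors deposited 1 table per experiment whose signal values are normalised counts of mature miRNAs. STAR and GRCh38 stand in the labels, per the submitters' processing notes; the counter and the normalization are not given in the sources used here. All deposited values (100%) are whole multiples of 1 step per column, within 0.01 of a read, so reads were recovered by division. For names with several loci the row with most reads was kept, which left 2652 names of 2883 rows. The table of experiment 3 is identical to that of experiment 2 and was not used.

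Comparisons were fitted in R 4.3.3 by limma 3.58.1 (eBayes with trend and robust options; neither for arm ratios) on log2(value + 1), with cell line and transfection as terms and Benjamini-Hochberg adjustment over all miRNAs tested. On simulated data for the main comparison (395 miRNAs, 100 changed), 96% of 2-fold and 100% of 4-fold changes were called, with 3 of 295 unchanged miRNAs. Counting intervals are exact and, like the floor of 3 reads, cover counting error only. No pair of replicate libraries was identical.

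Named miRNAs are, per direction, the 10 with the largest change among those called with a level above the median and the same sign in 4 lines, the 5 with the largest change at any level, their other arms, listed miRNAs with at least 10 reads, and miR-16-5p and miR-21-5p; cluster and seed relatives were added after their values were seen. Members, lists and tests were chosen with earlier results of these data known. Host genes are RefSeq spans, without regard to strand, and sequences matched for 357 of the 395 miRNAs tested and 59 of the 63 named. Alternatives included edgeR 4.0.16 and DESeq2 1.42.0 on recovered reads.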

Additional observations from a re-analysis of the deposited data

Results flagged for a closer look

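The change with dsGFPd differed from that with dsGFPc in 4 miRNAs by the direct test in total RNA of experiment 1 (limma, 8 against 8 libraries). The log2 difference, dsGFPd minus dsGFPc, was 0.90 for miR-20a-5p, 0.84 for miR-93-5p, 0.60 for miR-17-5p and -0.39 for miR-221-5p. The first 3 share a seed and a 3′ stretch that was itself defined from them and miR-106a-5p. Their differences in the Ago pulldown were 0.28, 0.18 and 0.15, without a call. That of miR-221-5p was 0.02 in the pulldown and 0.02 in total RNA of experiment 2, also without a call. Groups of 2 libraries were not screened for single outlying libraries. The 2 mock libraries of the TRBP knockout line differed most from each other, with a chi-square of 32.2 per degree of freedom against 7.27 to 14.5 in the other groups. Without TRBP knockout mock replicate 1 the main comparison had 104 calls.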

How the results depend on the processing

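For total RNA with dsGFPd against mock, 88 miRNAs were called in the main fit. Of the alternatives, a log2 change of at least 1 left 20, no low-count filter 65, at least 50 reads in 8 libraries 70, edgeR 86 and DESeq2 95. Leaving out single libraries, replicate numbers or lines gave 26 to 104, the lowest without replicate number 2 (79 without number 1, which leaves as many libraries; the cause was not tested), and 58 without the PACT knockout line. Leaving out single libraries gave 4 to 8 calls for dsGFPd against dsGFPc (8 without parental dsGFPc replicate 2), 93 to 133 in the pulldown, 15 to 37 in experiment 2 (15 without dsGFPd replicate 2 of the Ago2 knockout, 16 without its mock replicate 2 or dsGFPd replicate 2 of the Ago1 and Ago2 knockout) and 16 to 27 for arm ratios. It gave 0 to 0 for the interaction with cell line and for dsGFPd against dsGFPc in the pulldown and in experiment 2. With edgeR 14 miRNAs were called in experiment 2. No called change of a named miRNA turned its direction under the alternatives run.

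The labels give the replicate numbers no meaning and they were not used as pairs: mock and dsGFPd deviations of same-numbered libraries correlated at -0.093, 0.041, 0.097 and 0.132 in the 4 lines. For miR-1248 and miR-3651, replicate 2 was above replicate 1 in all 8 pairs of dsGFPd or dsGFPc libraries. With the replicate number as a block 95 miRNAs were called in the main comparison (88 with line and number together), 14 for dsGFPd against dsGFPc in place of 4, 158 in the pulldown, 29 in experiment 2, 26 arm ratios and 0 in the interaction. Low depth limits miRNAs under about 10 reads per library, more so with dsGFPd, whose libraries were shallower.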
